A study of Mus musculus with 7 samples.

Results

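The genes described here encode 8 enzymes that attach an acyl chain to a lysophospholipid, a phospholipid with only a single chain left on its backbone. They were chosen by name from the mouse genome (*Lpcat1*, *Lpcat2*, *Lpcat3*, *Lpcat4*, *Mboat1*, *Mboat2*, *Mboat7* and *Lclat1*) as the members of the Lpcat and Mboat families that set the acyl chains of membranes. They are 8 of the 23347 genes in the liver count table, and all 8 passed the filter on low counts that left 15179 genes to test.

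Liver RNA of 7 male mice on a C57BL/6 background was sequenced, with 1 library per mouse. All 7 mice had received a choline-deficient, amino acid-defined, high-fat diet (CDAHFD), which produces steatohepatitis, for 15 weeks from young adult age. The 4 mice labelled WT were *B4galt1* flox/flox littermates without Cre, and the 3 mice labelled B4galt1-HKO were bred to carry the same floxed alleles with *Alb-Cre*, a Cre driven by the albumin promoter that deletes in hepatocytes. The deletion is meant for hepatocytes alone, and *B4galt1* was not measured in single cell types. *B4galt1* is the gene of a galactosyltransferase that builds N-glycans. Livers of chow-fed mice were not analysed here, so every comparison is within the diet.

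Phospholipids are remodelled in the Lands cycle. A phospholipase A removes an acyl chain from the finished phospholipid, an acyl-CoA synthetase activates another fatty acid, and a lysophospholipid acyltransferase of the kind described here attaches it. The enzymes differ in the head group and the acyl chain that they prefer, and in liver LPCAT3 is known as the enzyme that places polyunsaturated chains in phosphatidylcholine and phosphatidylethanolamine. The question the comparison addresses is which of these transcripts differed in level when *B4galt1* was targeted in hepatocytes of CDAHFD-fed mice.

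Total counts ranged from 37838654 to 39668509 in WT and from 30608271 to 34586588 in B4galt1-HKO. In CPM, counts relative to the library total scaled by the trimmed mean of M values (TMM), 3 counts correspond to 0.0690 to 0.0848 CPM in WT and 0.0905 to 0.0987 CPM in B4galt1-HKO. *B4galt1* had 48.7, 53.0, 49.2 and 51.6 CPM in the WT livers and 28.4, 23.9 and 53.7 CPM in the livers labelled B4galt1-HKO. The third library of that group lay above every WT library in CPM, and in FPKM, fragments per kilobase relative to the library total, it had 11.9 beside 12.2 to 14.0 in WT. The level of the targeted gene in that library thus goes against its label, so the deletion or the label of that mouse is in doubt, and the group is called by its label throughout. The difference in *B4galt1* had a log2 fold change of -0.52 (SE 0.26) and an adjusted p of 0.181 from edgeR. The 7 hepatocyte markers were abundant in both groups, with summed levels of 75633 to 114802 CPM in WT and 93740 to 146304 CPM in B4galt1-HKO, and no marker passed the test. Mitochondrially encoded genes took 3.88% to 8.0% of the counts in WT and 14.4% to 22.6% in the livers labelled B4galt1-HKO. B4galt1-HKO replicate 3 had 14.4%, and its macrophage markers summed to 849 CPM beside 1587 CPM or more in WT. Whether its label is right was not tested.

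The 8 transcripts spanned a wide range of levels. Compared per length, in FPKM, *Lpcat3* led with a mean of 42.5 FPKM over the 7 livers, followed by *Lclat1* with 9.04 FPKM and *Mboat7* with 7.68 FPKM. *Lpcat2* (2.71 FPKM), *Lpcat1* (1.74 FPKM) and *Lpcat4* (1.69 FPKM) formed a lower tier. *Mboat1* had 0.722 FPKM and *Mboat2* had 0.0186 FPKM. Their protein products belong to a pair of unrelated families. LPCAT3 (also MBOAT5), MBOAT7, MBOAT1 and MBOAT2 are membrane-bound O-acyltransferases, whereas LCLAT1, LPCAT1, LPCAT2 and LPCAT4 share the motifs of the AGPAT acyltransferases.

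Promoters of 4 members are shown because these transcripts carry the results that follow. *Lpcat3* is the most abundant, *Lclat1* is the member that passed the test, and *Lpcat4* and *Mboat1* are the members with the largest fold changes. Each sequence is the RefSeq reference of the GRCm38.p6 build from 250 bases before to 50 bases after the annotated start, 5′ to 3′ on the strand of the gene. Capitals mark CCAAT and GGGCGG, the core letters of the CCAAT box and the GC box, read on both strands (ATTGG and CCGCCC on the other).
Lclat1 (chr17:73107735-73108034, plus strand): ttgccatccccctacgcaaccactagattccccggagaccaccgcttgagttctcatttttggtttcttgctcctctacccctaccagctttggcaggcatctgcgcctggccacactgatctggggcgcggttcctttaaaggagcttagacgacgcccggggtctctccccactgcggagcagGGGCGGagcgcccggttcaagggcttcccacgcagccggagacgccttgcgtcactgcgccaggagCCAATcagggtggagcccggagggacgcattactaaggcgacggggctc
Lpcat3 (chr6:124662854-124663153, plus strand): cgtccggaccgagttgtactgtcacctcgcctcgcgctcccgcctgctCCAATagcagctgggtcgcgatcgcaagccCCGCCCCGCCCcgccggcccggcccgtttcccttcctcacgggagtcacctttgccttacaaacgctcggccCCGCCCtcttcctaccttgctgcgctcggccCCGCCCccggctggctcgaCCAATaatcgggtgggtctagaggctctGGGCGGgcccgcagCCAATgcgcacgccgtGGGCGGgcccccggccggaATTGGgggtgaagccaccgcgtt
Lpcat4 (chr2:112239591-112239890, plus strand): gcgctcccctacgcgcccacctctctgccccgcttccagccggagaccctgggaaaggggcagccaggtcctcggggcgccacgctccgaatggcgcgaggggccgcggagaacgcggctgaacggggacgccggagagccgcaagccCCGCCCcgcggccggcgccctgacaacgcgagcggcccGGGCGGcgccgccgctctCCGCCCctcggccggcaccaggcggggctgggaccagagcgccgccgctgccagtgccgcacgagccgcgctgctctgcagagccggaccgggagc
Mboat1 (chr13:30136240-30136539, plus strand): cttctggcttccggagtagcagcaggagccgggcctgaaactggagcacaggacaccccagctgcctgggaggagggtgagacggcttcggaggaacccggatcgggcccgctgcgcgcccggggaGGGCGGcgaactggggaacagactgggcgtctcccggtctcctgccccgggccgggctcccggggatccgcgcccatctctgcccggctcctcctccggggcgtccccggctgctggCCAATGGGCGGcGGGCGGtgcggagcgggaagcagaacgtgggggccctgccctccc

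All 8 members had a promoter among the 32851 in the RefSeq table. GGGCGG was present in the windows of 8 of 8 members and in 35.7% of all promoters. The *Lpcat3* window held 6 matches, the *Lpcat4* and *Mboat1* windows 3 each and the *Lclat1* window 1. CCAAT was present in 5 of 8 member windows and in 37.4% of all promoters, with 4 matches in *Lpcat3*, 1 each in *Lclat1* and *Mboat1*, and none in *Lpcat4*. The GC content of these windows was 79.0% for *Lpcat4*, 74.3% for *Mboat1*, 71.0% for *Lpcat3* and 63.0% for *Lclat1*, beside a median of 52.7% over all promoters. TATAAA was found in the *Lpcat2* window alone among the members and in 13.6% of all promoters. Direct repeats read by LXR (GGTCA, 4 free bases and AGGTCA, in 0.0213% of promoters) and by PPAR (AGGTCA on both sides of 1 free base, in 0.0396%) and the SREBP element letters TCACNCCAC (1.24%) were in no member window. These matches describe the letters of the windows, and no binding was measured.

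A single member, *Lclat1*, passed the test between the groups, and it was lower in the livers labelled B4galt1-HKO. In TMM-normalized CPM, the livers labelled B4galt1-HKO all lay below all WT livers for *Lclat1*, *Lpcat3*, *Mboat7* and *Lpcat2*, of which *Lclat1* and *Lpcat3* kept this separation in FPKM while *Mboat7* and *Lpcat2* overlapped. In CPM they all lay above all WT livers for *Lpcat4* and *Mboat1*, and both overlapped in FPKM. Their levels were 2.40 and 2.75 times those of WT as fitted, with adjusted p-values just above the threshold. *Lpcat1* and *Mboat2* overlapped between the groups on both scales.

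Calls came from edgeR fitted to all 15179 genes tested and needed both an adjusted p below 0.05 and a log2 fold change beyond 0.58 in either direction. The 1 of 8 members called compares with 15.8% of all genes tested that were called in either direction and with 7.83% called lower. The number of members called was 3 by DESeq2, beside 21.5% of all genes tested, and 0 to 2 when a mouse was left out. At an unadjusted p under 0.05, 5 of 8 members passed, and 32.9% of all genes tested did. For groups that did not overlap in CPM, the 4 of 8 members below WT stand beside 15.0% of all genes tested, and the 2 of 8 above WT stand beside 13.6%. The log2 fold change was below 0 for 4 of 8 members and for 48.7% of all genes tested, and its median was -0.10 over the members and 0.02 over all genes tested. With 4 against 3 mice, the smallest p that a two-sided exact permutation test can give is 0.0286.

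**Figure D1:**
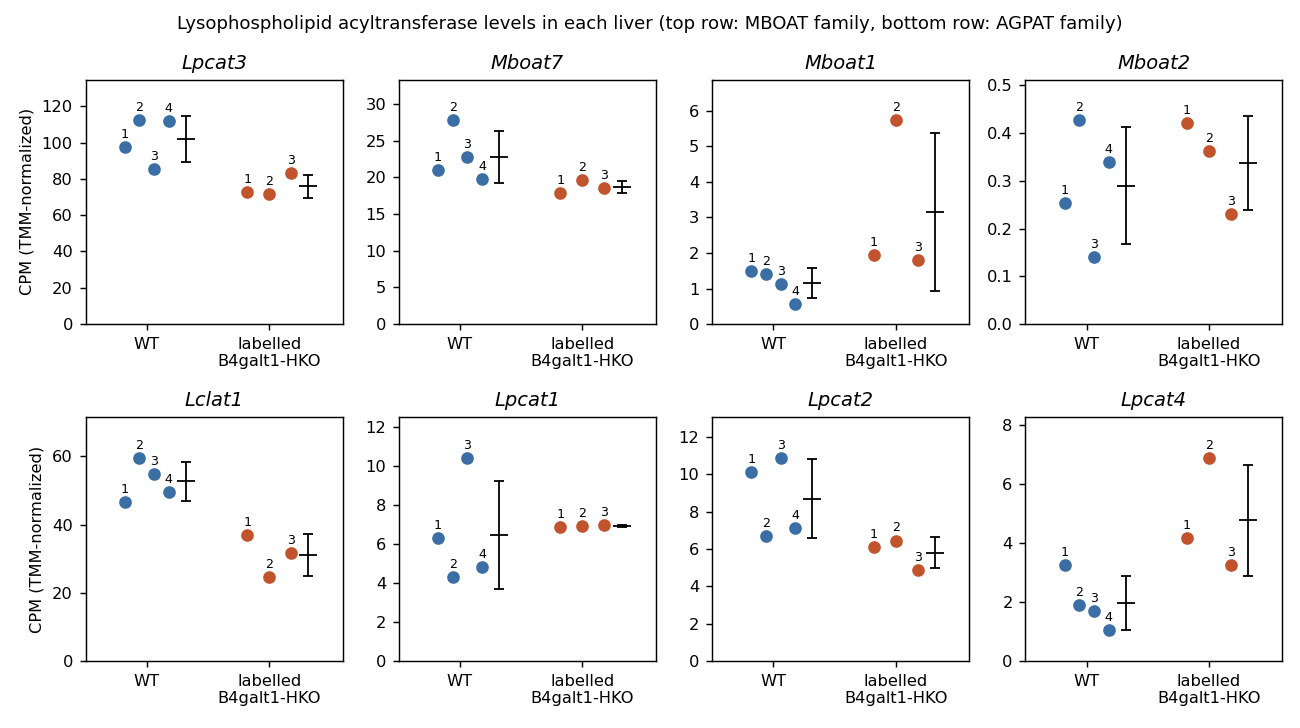
TMM-normalized CPM of each acyltransferase gene (vertical axis, starting at 0, a scale of its own per panel) in the 4 WT livers (blue) and the 3 livers labelled B4galt1-HKO (red). Points are single mice with their replicate number, and the bar beside them is the mean ± SD. *Lclat1* and *Lpcat3* sit lower in all 3 livers labelled B4galt1-HKO, and *Mboat1* is highest in B4galt1-HKO replicate 2, with 5.73 CPM.

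*Lclat1* (NCBI gene 225010, chromosome 17) encodes lysocardiolipin acyltransferase, an enzyme of the endoplasmic reticulum that acylates lysophosphatidylinositol and lysocardiolipin. Its transcript had 46.7, 59.5, 54.7 and 49.6 CPM in the WT livers. In the livers labelled B4galt1-HKO it had 37.0, 24.8 and 31.8 CPM. The highest of the latter was below the lowest WT liver, and replicate 2 was the lowest of all 7. The means were 52.6 ± 5.65 CPM (SD, n = 4) and 31.2 ± 6.15 CPM (SD, n = 3). *Lclat1* thus fell to 0.592 of the WT level, with a log2 fold change of -0.76 (SE 0.19, 95% interval -1.18 to -0.33) and an adjusted p of 0.0251 from edgeR's quasi-likelihood test. The exact permutation test of the same values gave p = 0.0286.

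The *Lclat1* call did not hold without WT replicate 2 (adjusted p = 0.0809 from edgeR), without WT replicate 3 (0.0524) or without B4galt1-HKO replicate 2 (0.0746). Its log2 fold change then lay between -0.74 and -0.61, beside a range of -0.91 to -0.61 over all 7 fits that left out a mouse. Without B4galt1-HKO replicate 3, the liver whose *B4galt1* was close to the WT level, the log2 fold change of *Lclat1* was -0.78 with an adjusted p of 0.0490. With the 13 mitochondrially encoded genes left out of the table, it was -0.75 with an adjusted p of 0.0242. Leaving these rows out cannot show whether the mitochondrial share, which did not overlap between the groups, played a part. That was not tested.

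*Mboat7* (NCBI gene 77582, chromosome 7) also acts on phosphatidylinositol, which it supplies with arachidonic acid. It had 21.0, 27.8, 22.8 and 19.7 CPM in WT and 17.9, 19.6 and 18.6 CPM in B4galt1-HKO. The groups did not overlap in CPM, but the highest liver labelled B4galt1-HKO and the lowest WT liver, 19.6 and 19.7 CPM, were almost at the same level. In FPKM the same livers, B4galt1-HKO replicate 2 and WT replicate 4, had 7.69 and 6.68, so the groups overlapped. Its log2 fold change was -0.29 (SE 0.18, 95% interval -0.69 to 0.11), the adjusted p from edgeR 0.297 and the exact permutation p 0.0571. It ranged from -0.35 to -0.18 when a mouse was left out, with -0.18 without WT replicate 2. In the GENCODE annotation of GRCm38, 277 of its 8339 exonic bases (3.32%) lie over exons of *Tsen34* on the other strand. Whether the counting used strand is not stated, so reads of these bases cannot be told apart.

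*Lpcat3* (NCBI gene 14792, chromosome 6), a target gene of LXR, had 97.6, 112, 85.6 and 112 CPM in the WT livers and 72.9, 71.7 and 83.2 CPM in the livers labelled B4galt1-HKO. The 3 latter values all lay below the lowest WT value, WT replicate 3, by a margin of a few CPM. The means were 102 ± 12.8 CPM (SD, n = 4) and 75.9 ± 6.33 CPM (SD, n = 3), 0.746 of the WT level. The log2 fold change of -0.42 (SE 0.18, 95% interval -0.82 to -0.02) had an unadjusted p of 0.0398 and an adjusted p of 0.131 from edgeR, so *Lpcat3* was not called. The exact permutation test gave p = 0.0571. In the annotation, 334 of its 3268 exonic bases (10.2%) lie over *Emg1* on the other strand, a gene with a mean of 42.4 CPM, and the same limit on strand applies.

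On the FPKM scale the difference in *Lpcat3* was larger, 49.1 ± 4.35 FPKM (SD, n = 4) against 33.7 ± 2.76 FPKM (SD, n = 3). With limma on log2(FPKM + 1) its log2 fold change was -0.53 with an adjusted p of 0.0228, past the threshold for p and short of that for size. The same held for voom, which works on the counts, at -0.49 with an adjusted p of 0.0492. FPKM divides by the whole library total, of which the mitochondrially encoded genes took more in the livers labelled B4galt1-HKO. The part of that share in the difference between the scales was not tested. Over 10811 genes tested in both ways, the median was -0.05 with TMM and -0.15 on the log2(FPKM + 1) scale. On the CPM scale *Lpcat3* was between -0.50 and -0.37 in every fit that left out a mouse.

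*Lpcat2* (NCBI gene 270084, chromosome 8) is best known from inflammatory cells, where its enzyme makes platelet-activating factor from the lyso form and also acylates lysophosphatidylcholine. It had 10.1, 6.70, 10.9 and 7.12 CPM in WT and 6.10, 6.45 and 4.87 CPM in B4galt1-HKO. The groups did not overlap in CPM, although WT replicates 2 and 4 were close to the livers labelled B4galt1-HKO. In FPKM these WT livers, at 2.39 and 2.36, lay below B4galt1-HKO replicate 2 at 2.48, so the groups overlapped. The log2 fold change was -0.58 (SE 0.26, 95% interval -1.14 to -0.02), with an unadjusted p of 0.0433 and an adjusted p of 0.138 from edgeR and an exact permutation p of 0.0857.

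Most macrophage markers moved in the same direction as *Lpcat2*, with a log2 fold change below 0 for 12 of 13 and of 0.05 for *Ccr2*. Of 13 markers tested, 7 were called lower, none was called higher and none was at 0, among them *Lyz2* (log2 fold change -2.15), *Adgre1* (-1.88), *Gpnmb* (-1.72), *Vsig4* (-1.24) and *Marco* (-1.24). Their summed level was 2149, 2168, 3607 and 1587 CPM in the WT livers and 770, 768 and 849 CPM in the livers labelled B4galt1-HKO. WT replicate 3 was the highest of the 7 livers in this sum, in *Lpcat2* and in *Lpcat1*. WT replicates 1 and 2 had nearly equal sums, with 10.1 and 6.70 CPM of *Lpcat2*. In bulk liver, fewer cells of a type and less RNA per cell cannot be told apart, and the part of macrophage RNA in the level of *Lpcat2* was not tested.

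*Lpcat1* (NCBI gene 210992, chromosome 13), whose enzyme is known for saturated phosphatidylcholine such as that of lung surfactant, had 6.32, 4.29, 10.4 and 4.83 CPM in WT. The livers labelled B4galt1-HKO had 6.85, 6.94 and 6.97 CPM, within the WT range and nearly equal to each other. For *Lpcat1* the log2 fold change was 0.10 (SE 0.31, 95% interval -0.58 to 0.77), the adjusted p from edgeR 0.852 and the exact permutation p 0.629. The sign of this value turned when a WT mouse was left out (-0.055 without WT replicate 2, -0.019 without WT replicate 4) and it was 0.42 without WT replicate 3. Endothelial markers summed to 69.9 to 295 CPM in WT, with the highest value in the same WT replicate 3, and to 97.0 to 116 CPM in B4galt1-HKO, and 1 of 6 (*Kdr*) was called lower. WT replicate 4, with the next highest sum in WT, 106 CPM, had 4.83 CPM of *Lpcat1*. The part of endothelial cells in the level of *Lpcat1* was not tested.

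*Lpcat4* (NCBI gene 99010, chromosome 2) encodes an acyltransferase that acts on lysophosphatidylcholine and lysophosphatidylethanolamine. It had 3.24, 1.91, 1.69 and 1.07 CPM in the WT livers and 4.16, 6.88 and 3.26 CPM in the livers labelled B4galt1-HKO. The groups did not overlap in CPM, by the margin between WT replicate 1 at 3.24 and B4galt1-HKO replicate 3 at 3.26. In FPKM they did, with 1.95 in the former and 1.505 in the latter. The log2 fold change was 1.26 (SE 0.41, 95% interval 0.38 to 2.15), with an adjusted p of 0.0550 from edgeR and an exact permutation p of 0.0571. The counts behind these values lay between 38 and 228 per library.

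*Mboat1* (NCBI gene 218121, chromosome 13), whose enzyme prefers lysophosphatidylserine and lysophosphatidylethanolamine, had 1.49, 1.41, 1.12 and 0.565 CPM in WT. It had 1.95, 5.73 and 1.81 CPM in B4galt1-HKO, where replicate 2 was far above its group mates and all 3 lay above the WT livers. In FPKM the groups overlapped, with 0.598 in WT replicate 1 and 0.557 in B4galt1-HKO replicate 3. The log2 fold change was 1.46 (SE 0.49, 95% interval 0.38 to 2.54), with an adjusted p of 0.0653 from edgeR and an exact permutation p of 0.0286. The counts ran from 20 to 190 per library. Without B4galt1-HKO replicate 2 the log2 fold change was 0.71 with an adjusted p of 0.378 from edgeR.

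The same liver, B4galt1-HKO replicate 2, was the highest of all 7 in *Lpcat4* and *Mboat1* and the lowest in *Lclat1*, in CPM and in FPKM. In *Lpcat3* it was the lowest of all 7 in CPM but the highest of its group in FPKM, with 36.2 beside 30.7 and 34.1. It also had the highest sum of cholangiocyte markers, 870 CPM, in a set of livers that spanned 253 to 656 CPM in WT and 259 to 870 CPM in B4galt1-HKO, with 0 of 5 markers called. The part of these cells in the 4 transcripts was not tested. Without that mouse the log2 fold change of *Lpcat4* was 0.90 (adjusted p = 0.209 from edgeR). Without B4galt1-HKO replicate 3, *Lpcat4* was called, at 1.47 with an adjusted p of 0.0495, and *Mboat1* stood at 1.73 with 0.0502. Whether *Lpcat4* and *Mboat1* passed the threshold also depended on the tool. DESeq2 called both (adjusted p = 0.0139 and 0.0195) and *Lclat1* (0.00485), beside 21.5% of all genes tested, 10.3% lower and 11.3% higher. A filter of 1 count in any mouse also let edgeR call these 3 members, beside 12.3% of all genes in that fit, and voom called *Lclat1* and *Lpcat4*, beside 19.7%. *Lpcat4* was at 0.70 by limma on log2(FPKM + 1), with an adjusted p of 0.0840, and at 1.10 by limma on log2(FPKM + 0.1), with 0.0833. With the replicate block in edgeR it was at 1.05, with an adjusted p of 0.147.

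*Mboat2* (NCBI gene 67216, chromosome 12), a paralog of *Mboat1* whose enzyme prefers lysophosphatidylethanolamine, was close to the limit of detection with 6 to 17 counts per library. Its level was 0.253, 0.427, 0.141 and 0.339 CPM in WT and 0.422, 0.362 and 0.230 CPM in B4galt1-HKO. These ranges overlapped, and the interval of the log2 fold change of 0.23 (SE 0.60), from -1.07 to 1.53, held both 0 and the value of *Mboat1*. The value was -0.0038 without WT replicate 3 and 0.47 without WT replicate 2. The adjusted p from edgeR was 0.819.

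**Figure D2:**
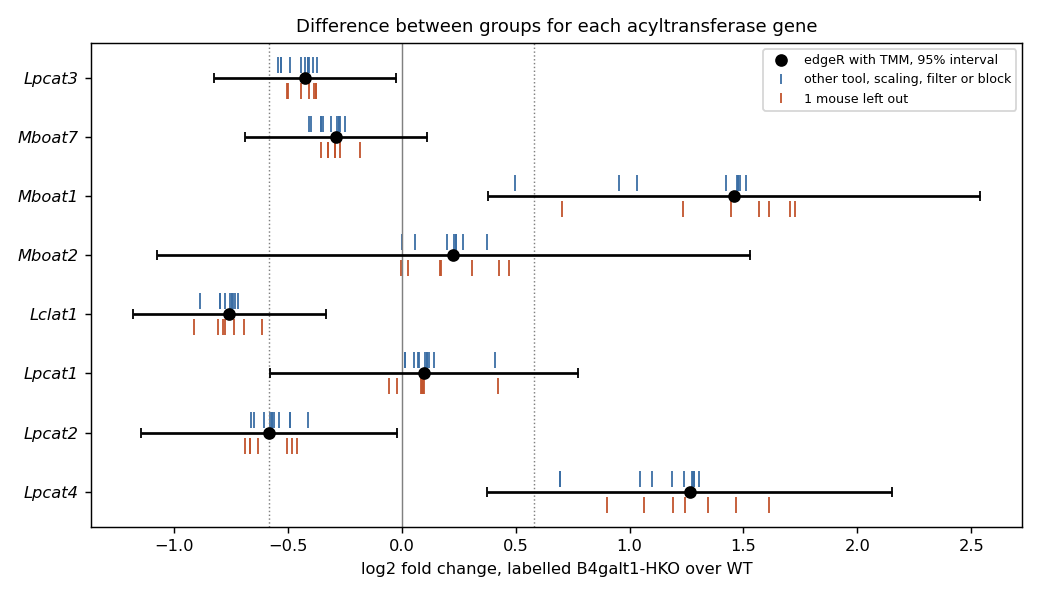
Log2 fold change of each acyltransferase gene, livers labelled B4galt1-HKO over WT (horizontal axis). Black points and bars are the edgeR estimate with its 95% interval, blue ticks the other tools, scalings, filters and the replicate block, red ticks the fits that left out 1 mouse, and dotted lines the threshold of 0.58 in either direction. The ticks of *Lclat1* stay between -0.91 and -0.61, whereas those of *Mboat1* run from 0.50 to 1.73. The 0.50 is from limma on log2(FPKM + 1) over all genes above 0, where the added 1 exceeds the WT mean of *Mboat1*, 0.426 FPKM.

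The make-up of the acyltransferase transcripts within each liver was compared as each member's share of their summed FPKM, which does not depend on how libraries are scaled to each other. *Lpcat3* made up 65.1% ± 4.54 (SD, n = 4) of the sum in WT and 63.1% ± 3.44 (SD, n = 3) in the livers labelled B4galt1-HKO (exact permutation p = 0.571). *Lclat1* made up 14.9% ± 1.46 and 11.5% ± 2.34, with an exact permutation p of 0.0857 and 0.229 after adjustment over the 8 members. The difference of -3.46 percentage points for *Lclat1* was -5.66 when shares were taken of the summed CPM, which is not per length. *Mboat7* had 11.3% in WT and 12.1% in B4galt1-HKO. Without a mouse, the difference ranged from -3.92 to -0.20 points for *Lpcat3*, from -4.67 to -2.33 for *Lclat1* and from 0.17 to 1.16 for *Mboat7*. These 3 transcripts together held 91.3% of the sum in WT and 86.6% in B4galt1-HKO (exact permutation p = 0.143).

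The share of *Lpcat4* was 1.44% ± 0.703 (SD, n = 4; range 0.762% to 2.43%) in WT and 4.49% ± 1.84 (SD, n = 3; range 2.95% to 6.53%) in B4galt1-HKO. That of *Mboat1* was 0.554% ± 0.203 (range 0.267% to 0.746%) in WT and 1.99% ± 1.42 (range 1.09% to 3.63%) in B4galt1-HKO. For both, every liver labelled B4galt1-HKO lay above every WT liver, with an exact permutation p of 0.0286, the smallest this design allows, and 0.114 after adjustment over the 8 members. Without B4galt1-HKO replicate 2 the difference fell from 1.43 to 0.614 percentage points for *Mboat1* and from 3.05 to 2.02 for *Lpcat4*. The sum of both shares was 2.0% ± 0.884 in WT and 6.47% ± 3.24 in B4galt1-HKO. *Lpcat2* took 4.31% and 3.69%, *Lpcat1* 2.35% and 3.19%, and *Mboat2* 0.0235% and 0.0365% of the sum, in that order of groups.

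**Figure D3:**
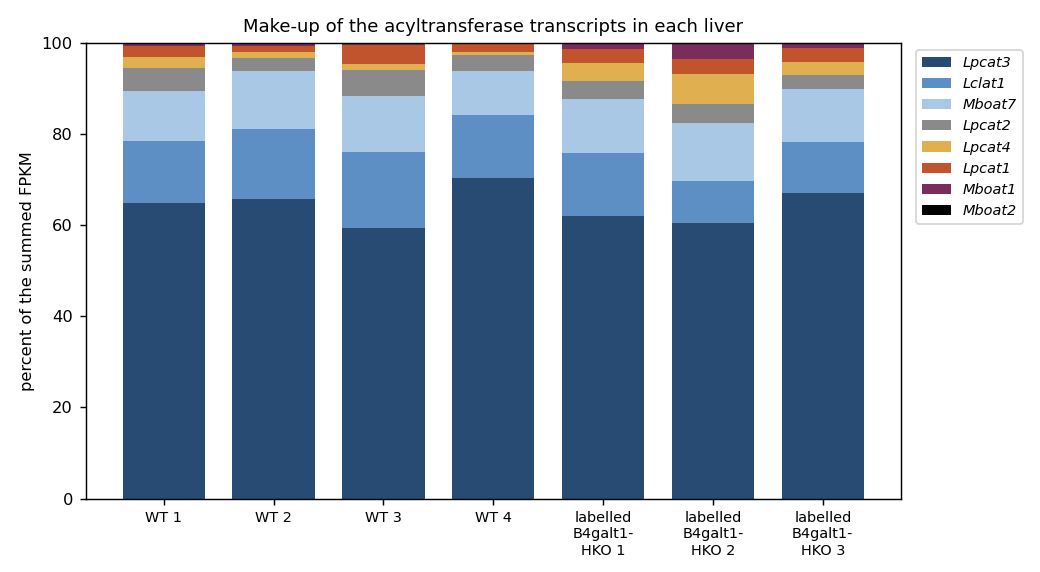
Share of each acyltransferase gene in the summed FPKM of the 8 genes (vertical axis, percent), 1 bar per liver, stacked in order of level with the most abundant at the bottom. *Lpcat3* fills between 59.3% and 70.4% of each bar, and the yellow (*Lpcat4*) and purple (*Mboat1*) segments are widest in B4galt1-HKO replicate 2.

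The summed FPKM of the 8 members was 80.2, 80.0, 72.6 and 69.3 in the WT livers and 49.6, 60.0 and 50.9 in the livers labelled B4galt1-HKO. The groups did not overlap, with means of 75.5 ± 5.46 (SD, n = 4) and 53.5 ± 5.62 FPKM (SD, n = 3) and an exact permutation p of 0.0286. Since FPKM carries the shift described for *Lpcat3*, the sum was also taken over TMM-normalized CPM per kilobase. It was then 72.8 ± 5.34 in WT and 56.1 ± 1.64 in B4galt1-HKO, with the same exact p. *Lpcat3* supplied most of both sums.

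The genes whose levels ran most like those of the 3 most abundant members over the 7 livers were found by the Pearson correlation of log2 CPM among 10189 genes. For *Lclat1* they were *Sae1* (r = 0.993), *Tpd52* (0.992) and *Sh3bgrl2* (0.992), of which *Tpd52* and *Sh3bgrl2* were themselves called lower, with log2 fold changes of -0.64 and -1.54. For *Lpcat3* they were *Dbr1* (0.987), *Pes1* (0.983) and *Oxa1l* (0.982), and none of these was called. For *Mboat7* they were *Ddx27* (0.946), *Tom1l1* (0.938) and *Dis3l* (0.930), also not called. The points are 7 libraries in 2 groups, so these values describe likeness across the same difference between groups.

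Around the acyltransferases, 8 lists of 100 other genes covered the rest of the cycle and its surroundings. Of these genes 82 could be tested, 16 were called lower and 2 higher in the livers labelled B4galt1-HKO, and the median log2 fold change was -0.26. These 18 of 82 stand beside 15.8% of all genes tested that were called in either direction, and the 16 called lower beside 7.83% of all genes. The calls rested in part on single mice, with 10 lower and 0 higher without WT replicate 2, 11 lower and 0 higher without B4galt1-HKO replicate 2, and 9 lower and 2 higher without B4galt1-HKO replicate 1. Limma on log2(FPKM + 1) over all genes above 0 called 16 lower and 0 higher, so the calls of *Agpat1* and *Pnpla6*, the 2 higher genes, were lost there and without either replicate 2. All of the called genes named here had groups that did not overlap in CPM. In the plot of these genes by list, the list medians lie between -0.58 and 0.10.

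**Figure D4:**
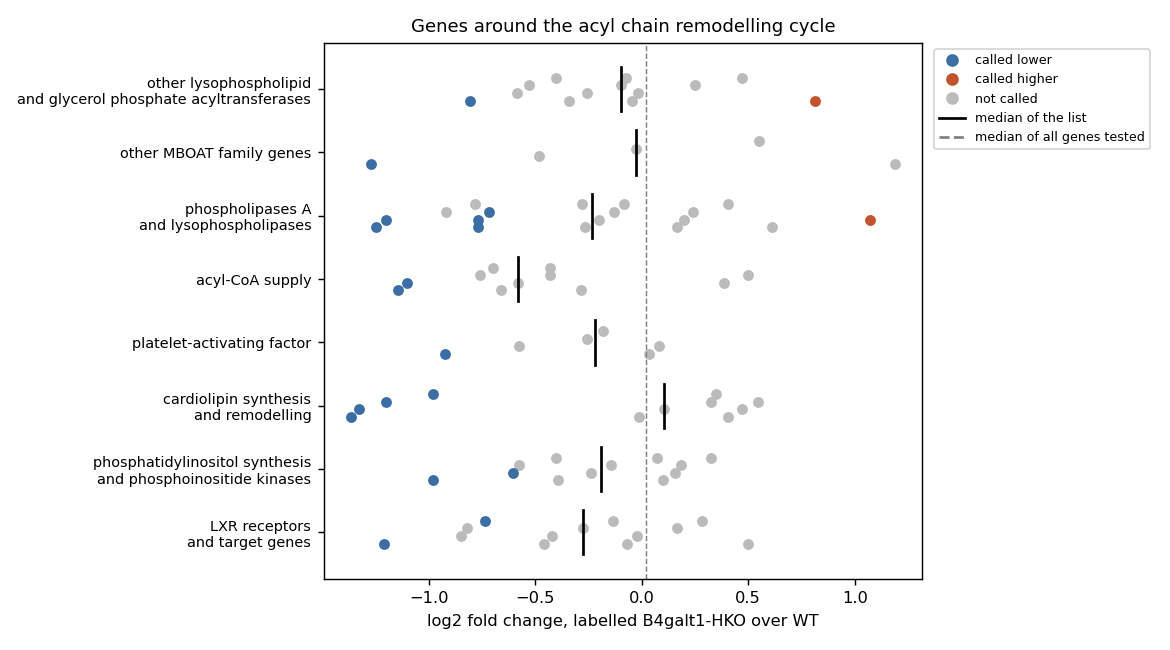
Log2 fold change, livers labelled B4galt1-HKO over WT (horizontal axis), of each tested gene in the 8 pathway lists (rows). Blue points were called lower, red points higher and grey points were not called, black lines are list medians and the dashed line is the median of all genes tested, 0.02. Called genes to the right of 0 are *Agpat1* and *Pnpla6*.

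The step before the acyltransferases, the removal of an acyl chain, was represented by 18 tested phospholipases A and lysophospholipases. Of these, 5 were called lower and 1 higher, with a median log2 fold change of -0.23. *Lyplal1*, a lysophospholipase-like hydrolase, had 15.3 ± 1.57 CPM in the 4 WT livers and 6.46 ± 2.46 CPM in the 3 others (± SD), a log2 fold change of -1.25. *Pnpla8*, a calcium-independent phospholipase A2 of mitochondria and peroxisomes, fell from 130 to 56.4 CPM (-1.20). *Pla2g15*, the lysosomal phospholipase A2, had -0.77, as had *Abhd12*, a lysophosphatidylserine lipase. *Pnpla6*, a lysophospholipase of the endoplasmic reticulum, rose from 14.1 ± 4.69 to 29.6 ± 6.52 CPM (1.07), a call that was lost without WT replicate 2 or B4galt1-HKO replicate 2. Their adjusted p-values from edgeR lay between 0.0149 and 0.0325.

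The acyl-CoA substrates come from 11 tested genes of fatty acid activation, elongation and desaturation, of which 2 were called lower, none higher, with a median of -0.58. *Acsl4*, the synthetase that prefers arachidonic acid, was among the genes called (log2 fold change -1.14, adjusted p = 0.0153 by edgeR). *Fads2*, the desaturase at the entry to polyunsaturated fatty acid synthesis, had 1229 ± 247 CPM in the 4 WT livers and 573 ± 169 CPM in the 3 others (± SD), a difference of -1.10 on the log2 scale (adjusted p = 0.0202 by edgeR).

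Among 13 other lysophospholipid and glycerol phosphate acyltransferases, 1 was called lower and 1 higher, with a median of -0.10. *Lpgat1*, named for its action on lysophosphatidylglycerol, fell from 167 ± 15.5 to 95.7 ± 26.9 CPM (log2 fold change -0.80). *Agpat1*, which makes phosphatidic acid in new glycerolipid synthesis, rose from 19.9 ± 4.34 to 34.9 ± 7.09 CPM (0.81), and kept its call only without WT replicate 1 or B4galt1-HKO replicate 1 among the fits that left out a mouse. Of 5 other genes of the membrane-bound O-acyltransferase family, *Soat1*, which esterifies cholesterol, was called lower (35.7 to 14.8 CPM, log2 fold change -1.27). *Soat1* is also well expressed in macrophages, most of whose markers were lower as given beside *Lpcat2*, and their part in its level was not tested.

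For the products that *Lclat1* serves, 11 genes of cardiolipin synthesis and remodelling were tested, with 4 called lower, none higher and a median of 0.10. *Hadha* and *Hadhb*, the subunits of the mitochondrial trifunctional protein, had log2 fold changes of -1.37 and -1.33. HADHA is primarily an enzyme of fatty acid oxidation, and a form of it acylates monolysocardiolipin. *Cds2*, which makes CDP-diacylglycerol, fell from 74.7 to 37.9 CPM (-0.98), and *Pnpla8* is the fourth. Of 12 tested genes of phosphatidylinositol synthesis and its kinases, *Cds2* and *Pi4ka*, a phosphatidylinositol 4-kinase (-0.61), were called lower and none higher, with a median of -0.19.

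For platelet-activating factor, the product of *Lpcat2*, 6 genes were tested and *Ptafr*, its receptor, was called lower (21.1 to 11.1 CPM, log2 fold change -0.93). *Ptafr* is also expressed in macrophages, most of whose markers were lower as given beside *Lpcat2*, and their part in its level was not tested. The acetylhydrolases that degrade it were not called. The LXR list held the receptors and 13 tested genes in all, with *Lpcat3* among them, and 2 were called lower, none higher, with a median of -0.28. *Abcg8*, a subunit of the sterol transporter of the canalicular membrane, had -0.74, and *Smpdl3a*, a phosphodiesterase strongly expressed in macrophages, had -1.21. The other 11 genes, the receptors *Nr1h3* (-0.02) and *Nr1h2* (0.28) among them, did not pass the test. The lowest of these were *Abcg1* (-0.85, adjusted p = 0.0524 by edgeR) and *Arl4c* (-0.82, adjusted p = 0.0718), whose groups did not overlap in CPM. Of all 13 genes, 10 had a log2 fold change below 0, some of them near 0, such as *Srebf1* (-0.13) and *Mylip* (-0.07). Those above 0 were *Nr1h2*, *Abcg5* (0.17) and *Scd1* (0.50).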

How the data were processed

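Livers of 4 WT and 3 B4galt1-HKO mice, grouped by the genotype in the labels, were compared, with replicate numbers from the labels. RNA was extracted with TRIzol and libraries were made with a VAHTS Universal V6 kit. The counts deposited by the authors are whole numbers per gene and liver, without normalization. A second table, deposited by the authors, holds FPKM for all of these genes. The submitters' processing notes name fastp, HISAT2, HTSeq, DESeq2, R 3.2.0 and the GRCm39 build, while the gene annotation, the strand setting and the other versions are not given in the sources used here. For 13374 genes with at least 10 counts in every liver, FPKM equalled the count divided by the library total and a length fixed per gene, with a largest spread across livers of 8.22e-06%. No column of sample values was left unused.

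Genes were filtered with filterByExpr (minimum count 10, minimum total count 15), scaled by TMM and fitted with group as the only term by the quasi-likelihood method of edgeR 4.0.16 (R 4.3.3), with Benjamini-Hochberg adjustment over all genes tested. The thresholds, 0.05 for the adjusted p and 0.58 for the absolute log2 fold change, are those of the study. Single values were compared by two-sided exact permutation tests. DESeq2 1.42.0, limma 3.58.1 (voom, and log2(FPKM + 1) or log2(FPKM + 0.1)), other scalings and filters, a replicate block and the omission of each mouse were alternatives. The summed FPKM and its alternatives were added after seeing the data.

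The members, the gene lists and the tests were chosen with earlier results of these data known. The text names the members, *B4galt1*, the called genes of each list (at most the 5 with the largest change) and the 3 genes most like each of the 3 most abundant members, with a mean of at least 5 CPM. Markers named beside *Lpcat2* follow the same rule, and the LXR genes that were not called were chosen after their values were seen. Standard errors come from the F statistic. Intervals of log2 fold changes are 95% intervals. The files' build was not at hand, so chromosomes and exon overlaps come from GENCODE M21 (GRCm38) and promoters from RefSeq (GRCm38.p6). Each library is a separate mouse by its label, no pair of the 21 agreed within sampling noise, and p-values measure the spread between these samples. A common biological coefficient of variation of 0.301 was estimated across genes.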

Additional observations from a re-analysis of the deposited data

How the results depend on the processing

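The fall of *Lclat1* kept its direction in all 18 alternatives and its call in 14. It lost the call with the replicate block, which leaves out WT replicate 4 (log2 fold change -0.80, adjusted p = 0.0907 from edgeR), and in 3 fits without a mouse (range of all 7 fits -0.91 to -0.61). *Lpcat4* was called by DESeq2 (1.28), with a filter of 1 count in any mouse (1.24), by voom (1.19), and without WT replicate 1 or B4galt1-HKO replicate 3 (range without a mouse 0.90 to 1.61). *Mboat1* was called by DESeq2 (1.48) and with the 1-count filter (1.43), and ranged from 0.71 to 1.73 without a mouse. The cause was not tested. The sign turned for *Lpcat1* without WT replicate 2 (-0.055) or 4 (-0.019) and for *Mboat2* without WT replicate 3 (-0.0038), with ranges of -0.055 to 0.42 and -0.0038 to 0.47. *Lpcat2*, *Lpcat3* and *Mboat7* were below 0 in all 18 alternatives and not called in any.

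The number of members called was 3 by DESeq2 and with the 1-count filter, 2 by voom, 0 with the block and 0 to 2 without a mouse, lowest without WT replicate 2, WT replicate 3 or B4galt1-HKO replicate 2. The 18 called pathway genes became 28 by limma on log2(FPKM + 0.1), 11 with the block and 10 to 18 without a mouse, lowest without WT replicate 2. The 2404 called genes of the whole table became 3271 by DESeq2, 1330 by limma on log2(FPKM + 1) over all genes above 0, 1225 with the block and 885 to 2396 without a mouse (885 without WT replicate 2, 1199 without B4galt1-HKO replicate 2, 1405 without WT replicate 3, 1552 without WT replicate 4). On log2(FPKM + 1) with low values filtered, 1733 genes were lower and 561 higher, against 1189 and 1215 with TMM. The difference in share ranged from 2.02 to 3.81 percentage points for *Lpcat4* and from 0.614 to 1.88 for *Mboat1* without a mouse, lowest without B4galt1-HKO replicate 2 in both, and that in summed FPKM from -25.2 to -20.1.

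Livers with the same replicate number did not deviate together (r = -0.42, -0.10 and 0.09), so the numbers do not pair the mice. *Mboat1* and *Mboat2* could not be tested after the FPKM filter, nor *Mboat2* after that of 10 counts in every mouse, and DESeq2 gave no adjusted p for *Mboat2*. *Mboat2*, with 6 to 17 counts per library, is the member with the least depth.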

Other observations

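Markers of other cell types in these livers are given as values. Neutrophil markers summed to 24.9 to 36.4 CPM in WT and 24.9 to 45.9 CPM in B4galt1-HKO, and lymphocyte markers to 12.3 to 30.8 and 21.2 to 44.7 CPM, with 0 of 4 and 0 of 7 called by edgeR. Stellate cell markers summed to 183 to 344 and 175 to 341 CPM, with 0 of 6 called. Red blood cell markers summed to 59.4 to 146 and 59.7 to 223 CPM, and 1 of 4, *Hba-a1*, was called higher with a log2 fold change of 1.11 although its groups overlapped. Of the 13 mitochondrially encoded genes, 12 were called higher and none lower, and their median difference was 1.92 on the log2 scale. *Kdr*, the endothelial marker that was called lower, had a log2 fold change of -1.33.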
